A study of Mus musculus with 2 samples.

Results

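Head-to-head gene pairs are neighbouring genes on opposite strands that are transcribed away from a common stretch of DNA, which is often called a bidirectional promoter. In the GENCODE M21 annotation of the mouse genome (GRCm38/mm10), adjacent autosomal protein-coding genes were taken as a pair where their outermost annotated starts lay at most 1 kb apart, with gene bodies that overlapped by at most 500 bp. Of the 20807 autosomal protein-coding genes, 2002 (9.62%) formed such pairs, each gene in 1 pair. The open chromatin at each pair was read over the span between its 2 starts plus 500 bp on each side, and was compared with 16684 single-gene promoters, whose windows of 500 bp on each side of the outermost start had no start of another protein-coding gene within 5 kb. The pairs were chosen from the annotation alone, and no peak value was used.

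The data were ATAC-seq peak lists of whole hearts from wildtype (WT) FVB mouse embryos at E11.5. ATAC-seq uses the Tn5 transposase to insert sequencing adapters where DNA is accessible. There were 2 replicates of 2 hearts each and 1 group, with no treatment, so values were compared between classes of promoters within each replicate, and a difference was read against the spread between the replicates. Replicate 1 had 118027 peaks and replicate 2 had 114783. The stretches covered by a peak in both lists gave 98924 shared regions. Fold enrichment is the ratio of the signal at a peak's summit to the genome-wide background that the peak caller assumed. Read totals were not given in the lists, so the depth was unknown and no counting interval was computed. Peaks carry running numbers along the genome, of which 1726 (1.44%) were skipped in replicate 1 and 1803 (1.55%) in replicate 2, and peaks with these numbers were not analysed here. A promoter without a listed peak therefore cannot be called inaccessible where its window touched a stretch between listed peaks with a skipped number in either list, which held for 38 pairs and 1005 single-gene promoters. Shares are given over all promoters and again without these, a choice made after seeing the data. Each such stretch reaches to the nearest listed peaks and can also hold promoters that truly lack a peak, so the second share may be too high as the first may be too low.

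Compact head-to-head promoters are typical of genes that most cells use, such as those of DNA repair, mitochondria and RNA processing. They usually lie in CpG islands, lack a TATA box and hold short binding motifs of broadly expressed factors: CCAAT, bound by NF-Y, CCGGAAG, bound by ETS factors such as GABPA, and GGGCGG, the GC box bound by Sp1 and its relatives. One nucleosome-free stretch can serve both genes, but accessibility alone does not show whether transcription starts on either side. The pairs are therefore called by their gene arrangement here. In whole hearts, an accessible state in fewer cells and a weaker accessibility in all cells cannot be told apart.

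The bases between the 2 starts are given for 7 pairs with high and low peaks. They were read from the GRCm38 reference, are written 5′ to 3′ on the plus strand, and run from the start of the first-named gene, on the minus strand, to that of the second, on the plus strand. Capitals mark matches on either strand to the CCAAT box (which reads ATTGG from the other strand), the ETS core CCGGAAG, the GC box GGGCGG (which reads CCGCCC from the other strand), the TATA box TATAAA (which reads TTTATA from the other strand) and the ZNF143 core ACTACAA. Hspa14/Cdnf (chr2:3512815-3513029) was among the pairs with the highest fold enrichment, Rpa3/Umad1 (chr6:8259174-8259287) was near the top of the DNA replication and repair list, and Hscb/Chek2 (chr5:110839778-110839978) and Mrps12/Sars2 (chr7:28741821-28741991) are textbook pairs with several CCAAT boxes. Sdhd/Timm8b (chr9:50603813-50603909) has an ETS core and a GC box but no CCAAT. Hist1h2ac/Hist1h2bc (chr13:23683949-23684198) stands for the histone pairs, with CCAAT and TATA boxes together. Col4a4/Col4a3 (chr1:82586850-82586920) had a low peak and holds none of the 5 motifs. The summits of Sdhd/Timm8b and Col4a4/Col4a3 lay outside the printed bases in both replicates, and that of Mrps12/Sars2 in replicate 2.
Hspa14/Cdnf: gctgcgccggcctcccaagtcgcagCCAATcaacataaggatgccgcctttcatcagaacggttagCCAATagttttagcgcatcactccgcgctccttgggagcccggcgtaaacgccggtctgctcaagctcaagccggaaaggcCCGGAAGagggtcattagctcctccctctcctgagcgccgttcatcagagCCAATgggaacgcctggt
Rpa3/Umad1: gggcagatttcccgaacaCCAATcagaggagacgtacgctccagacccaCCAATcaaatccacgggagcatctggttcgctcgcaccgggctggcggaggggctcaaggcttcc
Hscb/Chek2: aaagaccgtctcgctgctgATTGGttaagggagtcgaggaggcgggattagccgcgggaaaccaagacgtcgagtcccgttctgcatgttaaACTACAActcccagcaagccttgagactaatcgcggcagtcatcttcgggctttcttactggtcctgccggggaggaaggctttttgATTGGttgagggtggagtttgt
Mrps12/Sars2: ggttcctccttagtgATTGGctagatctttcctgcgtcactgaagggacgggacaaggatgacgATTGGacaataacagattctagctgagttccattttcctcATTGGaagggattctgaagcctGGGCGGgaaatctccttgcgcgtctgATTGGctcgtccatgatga
Sdhd/Timm8b: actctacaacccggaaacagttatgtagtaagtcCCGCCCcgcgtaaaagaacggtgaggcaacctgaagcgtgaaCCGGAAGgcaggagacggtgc
Hist1h2ac/Hist1h2bc: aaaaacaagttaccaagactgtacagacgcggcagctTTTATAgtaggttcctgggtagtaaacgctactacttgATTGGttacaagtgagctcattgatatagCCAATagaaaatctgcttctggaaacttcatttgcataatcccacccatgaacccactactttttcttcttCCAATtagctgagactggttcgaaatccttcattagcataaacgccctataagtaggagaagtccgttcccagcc
Col4a4/Col4a3: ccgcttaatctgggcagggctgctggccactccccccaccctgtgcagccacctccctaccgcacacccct

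Nearly all pairs were accessible. A peak lay in the window of 944 pairs in replicate 1 (94.3%), of 944 in replicate 2 (94.3%), and 943 had a shared region (94.2%). Of all 20807 protein-coding promoters taken one by one, 64.2% had a peak in replicate 1, 64.0% in replicate 2 and 62.9% a shared region. Among single-gene promoters the counts were 10041 (60.2%), 10020 (60.1%) and 9822 (58.9%). The difference of 34.1 percentage points in replicate 1 and 34.2 in replicate 2 was far larger than the spread between the replicates. Without the promoters at skipped peak numbers, a shared region was present at 940 of 963 pairs (97.6%), at 9744 of 15679 single-gene promoters (62.1%) and at 66.2% of all protein-coding promoters. With each gene of a pair taken by a window of 500 bp on each side of its own start, as for single-gene promoters, 94.0% of the 2002 genes had a shared region. Only 2 pairs had a peak in a single list, both of them weak: Smc1b/Ribc2, with the meiotic cohesin subunit Smc1b, at 3.80 in replicate 1, and Bco2/Il18, with the carotenoid-cleaving enzyme Bco2 and the cytokine Il18, at 3.52 in replicate 2.

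The pairs also had stronger peaks. Among promoters with a shared region, the median fold enrichment of pairs was 31.2 in replicate 1 and 31.4 in replicate 2, against 23.1 and 23.1 at single-gene promoters, a ratio of 1.35 and 1.36. For the mean of the replicates, the quartiles were 24.7 and 39.1 in pairs and 13.0 and 32.6 at single-gene promoters, so the classes overlapped widely. The longest shared region of a pair had a median length of 1592 bp (quartiles 1273 and 2024), against 1322 bp (909 and 1801). Of the pairs with a shared region, 793 (84.1%) reached 20.9, the limit of the highest 10% of all 96639 autosomal shared regions, as did 56.0% of single-gene promoters. The median over all autosomal shared regions was 6.28. The replicates ranked the pairs alike (Spearman's rho 0.974 over the 943 pairs, which share the same 2 libraries), and 96.6% of pairs differed by less than 1.25-fold between them.

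**Figure D1:**
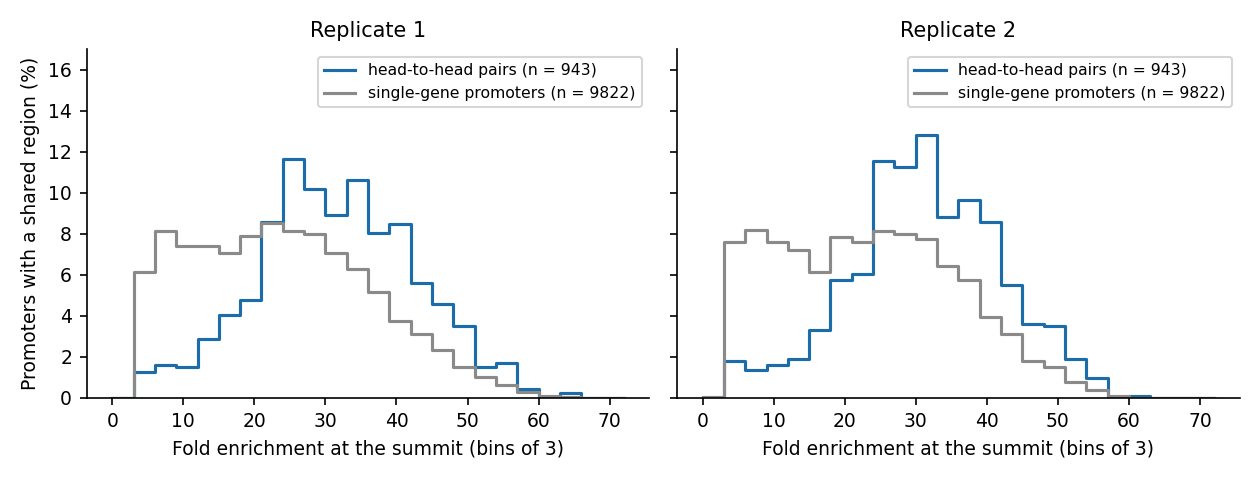
Fold enrichment at the summit (horizontal axis, bins of 3) against the percent of promoters with a shared region (vertical axis), in replicate 1 and replicate 2, for 943 head-to-head pairs (blue) and 9822 single-gene promoters (grey). Most pairs lie in a broad hump around their medians of 31.2 and 31.4, and few lie at the low values where the single-gene promoters have a broad shoulder.

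Part of the contrast followed CpG content, which was taken as the ratio of observed to expected CpG dinucleotides in the window. Its median was 0.761 in pairs and 0.502 at single-gene promoters, and only 41 pairs lay under 0.4, against 7253 single-gene promoters. Where the ratio was 0.8 or more, 96.4% of 385 pairs and 96.4% of 3171 single-gene promoters had a shared region. From 0.6 to 0.8, the shares were 96.6% of 465 pairs and 92.7% of 3965 single-gene promoters. From 0.4 to 0.6, they were 93.6% of 110 pairs and 79.7% of 2295. Under 0.4, the shares were 48.8% of the 41 pairs and 17.4% of single-gene promoters. The difference was thus near 0 in the CpG-richest class and 13.9 to 31.4 percentage points in the 2 CpG-poorer classes. Without the promoters at skipped peak numbers, all 370 pairs at 0.8 or more had a shared region, against 99.0% of 3074 single-gene promoters. From 0.6 to 0.8 the shares were then 99.6% of 449 and 95.6% of 3819, from 0.4 to 0.6 97.2% of 106 and 82.1% of 2201, and under 0.4 52.6% of 38 and 18.9% of 6585.

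Fold enrichment did not follow the same order. From 0.6 to 0.8, pairs had medians of 32.1 in replicate 1 and 31.9 in replicate 2, against 24.4 and 24.4 at single-gene promoters. From 0.4 to 0.6, the values were 25.3 and 25.6 against 17.1 and 16.8. At 0.8 or more the gap narrowed to 31.8 and 32.2 against 29.3 and 29.9. Under 0.4, the order turned, though only 20 pairs had a shared region there. These stood at 8.01 and 7.29, below the 1261 single-gene promoters with a shared region, at 10.3 and 9.05. In each of the 4 classes, the medians of pairs and single-gene promoters differed in the same direction in both replicates.

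**Figure D2:**
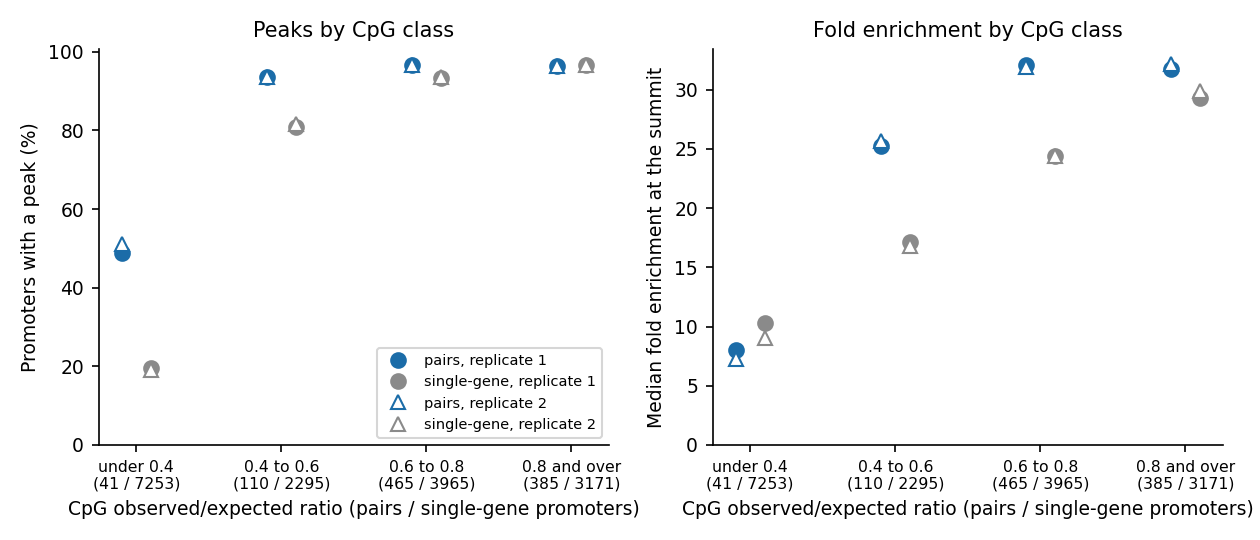
Left, percent of all promoters, those at skipped peak numbers included, with a peak, and right, median fold enrichment at the summit of promoters with a shared region, by class of CpG observed/expected ratio, with the number of pairs and of single-gene promoters under each class. Blue marks pairs and grey single-gene promoters, circles replicate 1 and triangles replicate 2. At left the classes meet at 0.8 and over. At right the pairs are higher in the 3 upper classes and lower under 0.4, where only 20 pairs had a shared region.

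Single-gene promoters with a non-coding gene facing away from them lay between the pairs and all single-gene promoters. There were 1058 of these, and their median CpG ratio of 0.755 was close to the 0.761 of pairs. Of these promoters, 86.6% had a shared region (89.4% without those at skipped peak numbers), with median fold enrichments of 28.0 and 27.7, below the pairs in both measures and in both replicates. The 13100 single-gene promoters without any other annotated start within 5 kb were lower still, at 55.7%, 22.5 and 22.4. How well the starts were annotated made little difference among the pairs. Of the 423 pairs in which both outermost starts came from a basic transcript of the best support level, 404 had a shared region (95.5%), as did 539 of the other 578 (93.3%). Without pairs at skipped peak numbers, the shares were 98.5% of 408 and 96.9% of 555.

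The 2 starts usually lay in a single accessible region. In 909 pairs (90.8% of all, and 96.4% of those with a shared region) 1 shared region covered both starts. The starts lay in separate regions in 6 pairs, 1 start alone was covered in 22, and in 6 the region lay in the window but over neither start. The median distance between starts was 74 bp, with quartiles of −87 and 176 bp, where a negative value means that the gene bodies overlap. The classes of distance used here include their upper and not their lower limit, except that the class of 0 to 100 bp includes 0. One region over both starts was seen in 90.7% of the 290 pairs with overlapping bodies, in 93.7% of the 301 pairs with starts 0 to 100 bp apart, in 93.0% of the 244 at 100 to 250 bp, in 94.1% of the 102 at 250 to 500 bp, and in 64.1% of the 64 at 500 to 1000 bp. Without pairs at skipped peak numbers, these shares were 95.3%, 96.9%, 95.8%, 96.0% and 66.1% in the same order.

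Divergent neighbours with starts farther apart rarely had both starts in 1 region. At 1 to 2 kb, 14.7% of 95 gene pairs had both starts in 1 region, and at 2 to 5 kb 0.365% of 274 did, although 77.9% and 78.8% still had a shared region in the window. At least 2 separate regions were then present at 36.5% and 69.0% of those with a shared region, against 4.45% of head-to-head pairs. Their windows were wider, with medians of 2532 and 4570 bp against 1153 bp, and a wider window can hold more regions.

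A single-gene region of ordinary width would often reach a second start placed close by. The share of single-gene regions that extend as far upstream as each class's median distance is therefore set beside these counts. It counts the reach from 1 start, whereas a pair has 2 starts, whose regions can each reach the other start or meet between them. At 0 to 100 bp, 98.1% of single-gene regions over their start reached that far, and 100% of the pairs with a start in a shared region had both starts in it. At 100 to 250 bp the values were 92.6% and 99.1%. At 250 to 500 bp they were 71.0% and 98.0%, and at 500 to 1000 bp 26.8% and 71.9%. In replicate 1 alone, the last class gave 29.9% and 70.7%, and in replicate 2 alone 32.2% and 78.9%. The regions of CpG-rich single-gene promoters reached farther, in 78.9% of cases at 250 to 500 bp and 32.3% at 500 to 1000 bp, which narrows the gap. Over short distances, coverage of both starts therefore says little about pairs. From 250 to 1000 bp it was more frequent than the reach from 1 start, CpG-rich promoters included, by more than the replicates differed. Single-gene regions reached a median of 449 bp upstream, so 2 of them facing each other could also join over such distances. The comparison therefore cannot show that the regions of pairs were wider than ordinary ones.

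**Figure D3:**
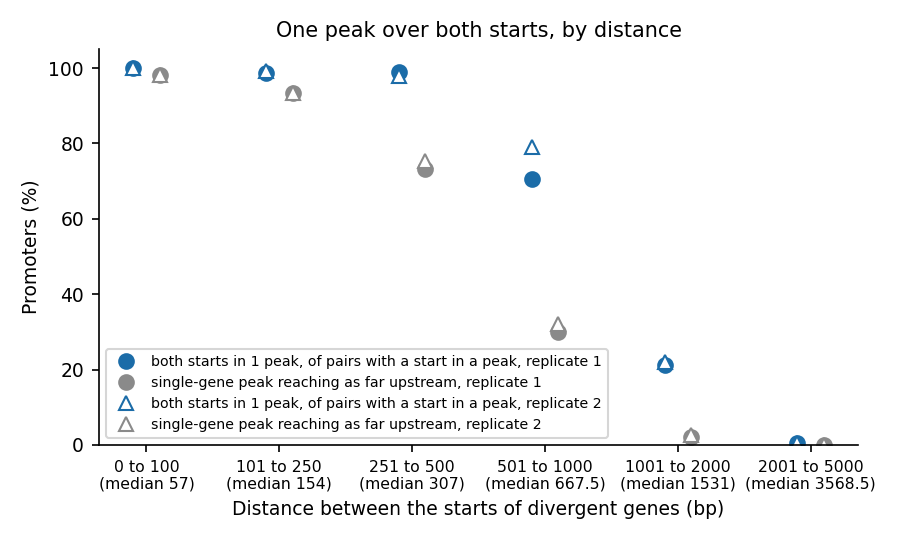
Percent of promoters (vertical axis) by distance between the starts of divergent genes in bp (horizontal axis, with the median of each class). Blue, pairs with both starts in 1 peak among those with a start in a peak. Grey, single-gene peaks over their start that reach at least the class's median distance upstream, a reach from 1 start only. Circles are replicate 1 and triangles replicate 2. Blue and grey lie farthest apart from 250 to 1000 bp, and both are near 0 at 2 to 5 kb.

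The reach of these regions into the genes differed from that at single-gene promoters. In the 646 pairs without body overlap and with both starts in 1 shared region, the region ran a median of 712 bp into the gene from each start (751 in replicate 1 and 790 in replicate 2 by their own peaks). At single-gene promoters it ran 842 bp into the gene (876 and 913) and 449 bp upstream (476 and 497). Seen from each start of a pair, accessibility thus reached less far downstream than at a single-gene promoter. The summit lay a median of 85.5 bp from the midpoint of the starts in replicate 1 and 89 bp in replicate 2. At single-gene promoters it lay about as near to the start, at 95 and 98 bp. In pairs the summit fell between the 2 starts in 15.2% and 14.8% of cases 0 to 100 bp apart. A longer interval has more room for the summit, and the shares were 64.7% and 63.4% at 100 to 250 bp. They were 79.6% and 81.6% at 250 to 500 bp. At 500 to 1000 bp the shares were lower again, at 55.2% and 46.6%, and with overlapping bodies they were 40.4% and 39.7%. The summits of the replicates lay a median of 20 bp apart.

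Distance also went with strength. Median fold enrichment was 28.8 and 29.9 (replicates 1 and 2) in pairs with overlapping bodies, and 28.5 and 29.2 at 0 to 100 bp. It was 35.9 and 35.7 at 100 to 250 bp and 38.4 and 38.2 at 250 to 500 bp, and it was 31.6 and 31.7 at 500 to 1000 bp. The first 2 classes differed by no more than the replicates did. The classes from 100 to 500 bp were higher than these by several times that spread. It does not measure the variation among pairs, which was wide. For the mean of the replicates, the quartiles were 23.6 and 34.3 at 0 to 100 bp. They were 28.2 and 41.8 at 100 to 250 bp, and 28.5 and 46.1 at 250 to 500 bp, so the classes overlapped. The median length of the shared region rose across the classes without body overlap, at 1489, 1649, 1774 and 1998 bp in that order.

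The sequence of pairs differed from that of other promoters in the motifs they held. Motifs were searched on both strands in 300 bp, centred on the midpoint of the starts in pairs and running from 250 bp before to 50 bp after the start elsewhere. The ETS core CCGGAAG was present in 27.1% of pairs, 9.18% of single-gene promoters and 11.0% of all protein-coding promoters. Among promoters with a CpG ratio of 0.6 or more, it was in 28.9% of pairs and 16.4% of single-gene promoters. The YY1 core ATGGCGGC was in 6.79% of pairs, 2.04% of single-gene promoters and 2.60% of all promoters, and in 7.53% and 4.05% of the CpG-rich ones. TATAAA was rarer in pairs, at 4.20% against 13.9% of single-gene promoters and 12.7% of all, and at 3.88% against 6.53% among the CpG-rich ones. The GC box GGGCGG was in 64.7% of pairs, 41.4% of single-gene promoters and 43.7% of all, but this order turned among CpG-rich promoters, at 68.2% and 71.9%. CCAAT was as frequent in pairs (38.4%) as at single-gene promoters (38.4%) and at all promoters (38.6%), and the CpG-rich shares were 39.2% and 37.0%. The cyclic AMP response element TGACGTCA was in 4.0%, 2.26% and 2.43%, the NRF1 core GCATGCGC in 5.79%, 3.05% and 3.45%, and ACTACAA in 5.19%, 3.67% and 3.83%. Among CpG-rich promoters, pairs and single-gene promoters held the first in 4.47% and 3.85%, the NRF1 core in 6.24% and 5.96%, which differ little, and ACTACAA in 5.06% and 3.46%. Of the motifs of factors active in heart muscle, AGATAA, bound by GATA factors, was in 4.40% of pairs, 10.7% of single-gene promoters and 9.94% of all, and GGAATG, bound by TEAD factors, in 9.39%, 13.9% and 13.5%. Among CpG-rich promoters the shares in pairs and at single-gene promoters came closer, at 4.0% and 5.18% for AGATAA and at 8.59% and 10.7% for GGAATG. Searched from each gene's own start, in the window used for the other promoters, pair genes held the ETS core in 26.6% of cases, the YY1 core in 6.29%, TATAAA in 4.55%, the GC box in 66.1% and CCAAT in 40.6%. These shares count letters in the reference and are not binding sites.

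Although CCAAT was no more common in pairs, pairs that held it had higher peaks. Their median fold enrichment was 36.4 in replicate 1 and 36.1 in replicate 2, against 28.2 and 28.9 in pairs without it. It rose with copies, from 28.2 and 28.9 with none (583 pairs with a shared region) to 34.5 and 33.4 with 1 (209 pairs) and 38.3 and 38.2 with 2 or more (151 pairs). Rpa3/Umad1, with the 2 copies printed above between its starts, stood at 49.4 and 49.5. Rpa3 is a subunit of the single-strand DNA binding protein of replication. Hspa14/Cdnf, with 3 copies there, stood at 58.4 and 54.0, and Sdhd/Timm8b, with none there, at 25.8 and 27.9. Mrps12/Sars2, with 4 copies, was no higher than 33.1 and 28.9. The number of copies therefore ordered the medians and not single pairs.

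The presence of CCAAT moved with distance, at 24.8% of pairs with overlapping bodies, 32.6% at 0 to 100 bp, 52.9% at 100 to 250 bp, 57.8% at 250 to 500 bp and 40.6% at 500 to 1000 bp. Within the distance classes, pairs with and without it stood at 34.5 and 27.2 (bodies overlapping), 33.7 and 26.5 (0 to 100 bp), 37.8 and 32.7 (100 to 250 bp) and 42.8 and 32.5 (250 to 500 bp) in replicate 1. The same classes gave 33.4 and 28.4, 32.2 and 27.7, 37.5 and 31.5, and 41.7 and 33.6 in replicate 2. At 500 to 1000 bp the values were 31.9 and 31.6, then 32.1 and 30.5, and differed little more than the replicates. The difference was not particular to pairs, since CpG-rich single-gene promoters with and without CCAAT stood at 30.4 and 25.0 in replicate 1 and at 30.4 and 25.4 in replicate 2. The GC box also went with higher peaks, at 33.1 and 32.4 in pairs with it and 28.4 and 28.9 in pairs without it, and at 28.2 and 28.4 against 24.2 and 24.4 at CpG-rich single-gene promoters. The ETS core did not go with higher peaks in pairs, at 29.3 and 30.8 with it against 31.8 and 31.7 without it, whereas CpG-rich single-gene promoters stood at 28.8 and 28.9 with it and at 26.3 and 26.6 without it. It was most frequent at 0 to 100 bp (37.2%) and least at 500 to 1000 bp (4.69%), where the 300 bp lie between the starts and reach neither. Whether NF-Y or any other factor was bound was not measured.

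**Figure D4:**
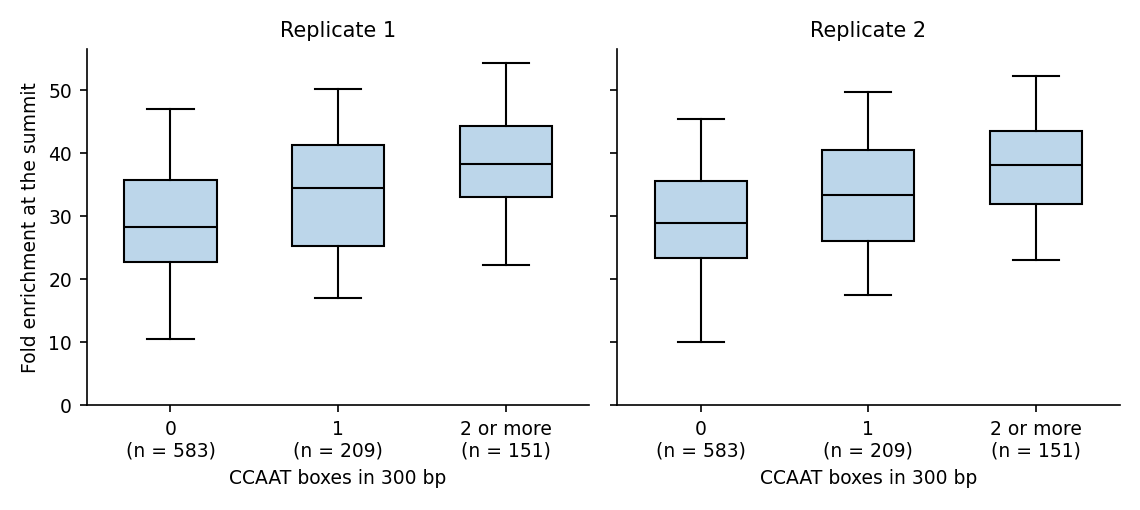
Fold enrichment at the summit (vertical axis) of the pairs with a shared region, by the number of CCAAT boxes in the 300 bp centred on the midpoint of the starts (horizontal axis), in replicate 1 (left) and replicate 2 (right). Boxes span the quartiles with a line at the median, and whiskers the central 90% of pairs. In replicate 1 the medians rise from 28.2 to 38.3, and those of replicate 2 from 28.9 to 38.2, with wide overlap of the boxes.

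Pairs known from textbooks gave the same picture gene by gene. All 20 of them had a shared region over both starts, as did 90.8% of all pairs (94.1% without those at skipped peak numbers), and their medians were 33.0 and 31.5. Mcm4/Prkdc, which joins a subunit of the replicative helicase to the catalytic subunit of the DNA-dependent protein kinase, stood at 47.8 in replicate 1 and 49.8 in replicate 2 with starts 466 bp apart. Atm/Npat, with the DNA damage kinase Atm and the histone transcription factor Npat, stood at 46.4 and 44.0. Hspd1/Hspe1, which encode the mitochondrial chaperonin and its lid, stood at 38.3 and 40.5. Brca1/Nbr1, with a recombination repair gene and an autophagy receptor, stood at 35.0 and 34.4. Both of its summits lay on the Nbr1 side, beyond the 500 bp of the window, so these values were not measured between the starts.

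Other textbook pairs were lower. Surf1/Surf2, with an assembly factor of cytochrome c oxidase, stood at 17.1 and 19.9, and Psmb9/Tap1, which encode a proteasome subunit and a peptide transporter of antigen presentation, at 18.7 and 21.1. Tk1/Afmid, with the thymidine kinase of dividing cells, was low at 8.96 in replicate 1 and 10.1 in replicate 2. The 2 collagen IV pairs of basement membranes parted. Col4a1/Col4a2, the chains found in nearly every basement membrane, had a region of 2110 bp at 17.1 and 12.3, and Col4a4/Col4a3, whose chains are best known from kidney and inner ear, 1 of 1047 bp at 7.88 and 5.28. Both collagen pairs were higher in replicate 1, by more than the 1.25-fold within which 96.6% of pairs fell.

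**Figure D5:**
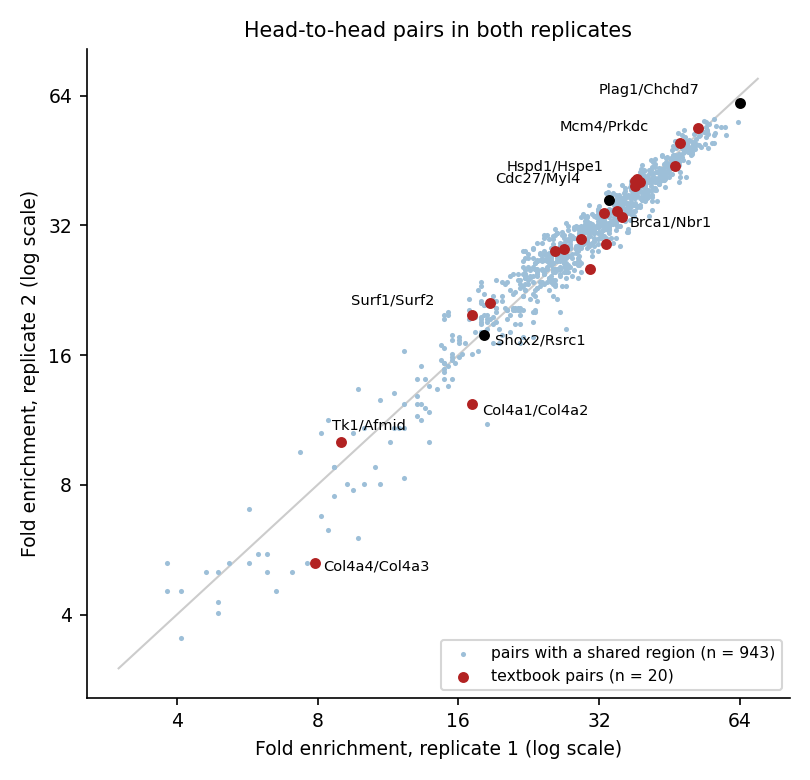
Fold enrichment at the summit in replicate 1 (horizontal axis) and replicate 2 (vertical axis), both on log scales, for the 943 pairs with a shared region (light blue). Red points are the 20 textbook pairs, black points 3 other pairs named beside them, and the line marks equal values. The pairs lie along the line from 3.80 to 64.1 in replicate 1, and Col4a1/Col4a2 and Col4a4/Col4a3 fall below it.

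Of all pairs, Plag1/Chchd7, with a zinc finger transcription factor and a mitochondrial protein, was the highest in both replicates, at 64.1 in replicate 1 and 61.6 in replicate 2, with starts 465 bp apart and a region of 2985 bp. Pdcd10/Serpini1, with a gene of vascular integrity and neuroserpin, followed at 63.6 and 55.6. Atp7b/Alg11, a copper pump and an enzyme of N-glycan synthesis, stood at 59.5 and 54.0. The other pairs among the 10 highest were Hspa14/Cdnf, Cep57/Fam76b, Pip4p1/Pnp, Ggps1/Arid4b, Odr4/Tpr, Srgap2/Fam72a and Zfp654/Cggbp1, between 53.8 and 59.8 in replicate 1 and between 51.8 and 56.3 in replicate 2. Their order differed between the replicates, in which Pip4p1/Pnp was the highest and the lowest of these 7.

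The longest region was not among the strongest. It measured 5294 bp at Tmc6/Tmc8, 2 transmembrane channel-like genes, and stood at 28.2 and 29.9, below the median of pairs. Other long regions, at Thoc6/Hcfc1r1, Srgap2/Fam72a and Sptbn4/Blvrb, measured 4655, 4345 and 4265 bp. These were stronger, at 36.7 and 35.9, 54.3 and 55.6, and 50.5 and 47.3 in the same order, and Srgap2/Fam72a was also among the 10 highest.

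At the other end were the 5 pairs with the lowest mean fold enrichment of a shared region. Bhmt2/Dmgdh, enzymes of choline and betaine breakdown in liver and kidney, stood at 4.07 and 3.52 in a region of 205 bp. Tssk3/Fam229a, with a testis-specific kinase, stood at 3.80 and 4.53, and Il31/Lrrc43, with a T cell cytokine, at 4.07 and 4.53. Nr2e1/Ostm1, with a neural stem cell receptor, had peaks of 3.80 and 5.28 that overlapped over 91 bp only, with both summits outside the overlap and neither start in it. Dleu7/Rnaseh2b stood at 4.89 and 4.02. All 5 lay well under the 6.28 median of all autosomal shared regions, and under every textbook pair but Col4a4/Col4a3 in both replicates.

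The pairs were grouped by lists of genes defined by symbol, and each group was set beside the single-gene promoters of the same list. DNA replication and repair genes were frequent members: 35 of the 108 genes of the list (32.4%) lay in 34 pairs, against 9.62% of all genes. All 34 pairs had a shared region, with medians of 34.9 and 34.6, and 30 had both starts in it. Since 94.2% of all pairs had a shared region and 90.8% had 1 over both starts (97.6% and 94.1% without pairs at skipped peak numbers), such counts in this and the next lists lie near those of pairs in general. The 63 single-gene promoters of that list had a shared region in 58 cases, with medians of 30.6 and 30.2. Emc3/Fancd2, with the Fanconi anaemia protein Fancd2, was the lowest of the group at 16.3 and 16.1.

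Mitochondrial genes were also common in pairs. Of the 78 mitochondrial ribosome genes, 26 (33.3%) lay in 25 pairs, all with 1 shared region over both starts, at 25.3 and 26.1. Mrpl41/Pnpla7 was the highest, at 44.3 and 42.0, and Lrrc46/Mrpl10 the lowest, at 13.3 and 12.3. The 34 respiratory chain and assembly pairs all had a shared region over both starts, at 29.1 and 30.2. Both mitochondrial groups lay below the medians of all pairs, 31.2 and 31.4, in both replicates, and above the single-gene promoters of their lists, at 22.0 and 21.6 for the ribosome and 26.6 and 27.7 for the respiratory chain.

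RNA and chromatin genes formed further lists. All 38 pairs of splicing and RNA processing (31.8 and 33.2) and all 35 pairs of transcription and chromatin machinery (30.2 and 29.7) had a shared region over both starts. So did all 29 cilium pairs (34.5 and 33.4) and all 8 tRNA synthetase pairs (33.5 and 31.8). The single-gene promoters of the cilium list stood at 27.3 and 27.3, with 80 of 94 accessible. Some other lists held pairs without a shared region, part of them at skipped peak numbers. It was present at 34 of 38 pairs of cell cycle and mitosis, where 3 of the other 4 lay at such numbers, and at 24 of 26 of proteasome and ubiquitin, where both others did. It was present at 30 of 32 pairs of membrane traffic, where 1 of the others lay there, and at 22 of 23 of solute carriers. Zinc finger pairs had it in 31 of 32 cases, at 28.5 and 28.7.

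In 2 lists the pairs stood below the single-gene promoters in both replicates. Mitochondrial import was the smaller, with 6 pairs at 24.4 and 24.9 against 28.0 and 27.4. Of the cytosolic ribosomal proteins, 12 of 14 pairs had a shared region (1 other lay at skipped peak numbers), at 23.1 and 24.1 against 27.6 and 27.7 at the single-gene promoters of the list, where 42 of 45 were accessible. Rpl15/Nkiras1 was high at 52.4 and 51.5, and Zwilch/Rpl4 low at 9.51 and 10.6, with no region over both starts. Chemosensory receptors were almost missing from pairs, at 1 of 1474 genes. That pair, Nt5c3/Vmn1r4, stood at 41.6 and 42.0 and its partner Nt5c3 is a pyrimidine nucleotidase, whereas 10 of 1426 single-gene receptor promoters were accessible.

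Of 73 genes of the heart list, 5 (6.85%) lay in pairs, which is near the 9.62% of all genes, and 4 of these 5 pairs had a shared region. Cdc27/Myl4, which joins a subunit of the anaphase-promoting complex to the atrial myosin light chain with starts 43 bp apart, stood at 33.7 in replicate 1 and 36.7 in replicate 2. Myl12a/Myom1, with the M-band protein myomesin, stood at 34.8 and 32.4. Shox2/Rsrc1, where Shox2 is the pacemaker transcription factor and the starts lie at −381 bp, so that the bodies overlap, had a long region of 2563 bp at 18.2 and 17.8, rank 849 of the 943 pairs. Klc3/Ckm, with muscle creatine kinase, stood at 17.4 and 19.6, but its region covered the start of Klc3 and not that of Ckm. Smyd1/Cd8b1, with a histone methyltransferase of heart and skeletal muscle, had no peak in either list, and no peak number was skipped there. The 66 single-gene promoters of the heart list had a shared region in 60 cases, at 18.2 and 16.1.

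The tissue label was checked at marker promoters. Of 7 heart marker genes, 5 had a shared region within 500 bp of their outermost start, among them Tnnt2 at 25.0 and 20.9 and Actc1 at 25.8 and 22.1, while Nkx2-5 and Tbx5 had none there. Of 8 markers of other cells of the organ or of blood and neural crest, 5 had one (Kdr, Tcf21, Wt1, Hba-a1 and Klf1) and Pecam1, Ptprc and Sox10 had none. Both counts are near the 62.9% of all protein-coding promoters, so promoter accessibility at these markers did not set heart cells apart from the others. Pecam1 is itself in a pair, Pecam1/Milr1, which had no peak in either list.

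Histone pairs had a sequence of their own kind. Of 13 pairs with a histone gene on both sides, 12 joined an H2A to an H2B gene, the arrangement by which the core histones are made together in S phase. All 13 held at least 2 CCAAT boxes and 9 held TATAAA, which was present in 4.20% of all pairs. A shared region was present at 7 of them, at 26.3 to 38.0 in replicate 1 and 29.2 to 35.7 in replicate 2. Hist1h2ac/Hist1h2bc, printed above, was the highest in replicate 1, at 38.0 and 35.7. Fewer than 50% of the stretches of 32 bases occurred once in the genome in 6 of these 7 pairs, so that reads from their near-identical copies cannot always be told apart. Of the 6 pairs without a region, 5 lay at skipped peak numbers. The other was Hist1h2ba/Hist1h2aa, whose genes are the histone variants known from testis.

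In all, 58 pairs had no shared region, and 35 of these lay at skipped peak numbers, among them 28 of the 30 with a CpG ratio of 0.6 or more. Of the other 23 pairs, 21 had no peak in either list, 18 had a CpG ratio under 0.4 and 3 one from 0.4 to 0.6. The 2 CpG-rich ones were Hist1h2ba/Hist1h2aa and Smc1b/Ribc2, whose single peak was given above. CpG-rich pairs without skipped peak numbers thus had a shared region in 99.8% of 819 cases, against 97.1% of 6893 CpG-rich single-gene promoters.

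The CpG-poor pairs without a peak and without skipped numbers included Wfdc8/Wfdc6b, which encode protease inhibitors of the WAP family, Patl2/Terb2, with genes of oocytes and meiosis, and Plcz1/Capza3, with the sperm phospholipase that activates the egg. They also included Slc27a5/Trim28, with a bile acid enzyme of liver and a widely used corepressor, and Rnf151/Rps2, with a protein of the small ribosomal subunit. Their windows follow the outermost annotated start, which need not be the start that the heart uses. The last 3 of these pairs were named after their values were seen.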

How the data were processed

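The 2 ATAC-seq replicates of wildtype FVB hearts at E11.5 form 1 group. Per the methods and the submitters' processing notes, the authors trimmed reads with Trim Galore 0.6.6, mapped them to GRCm38/mm10 with Bowtie2 2.4.2, filtered duplicate and poorly mapped reads (SAMtools 1.12) and ran the MACS2 peak caller per replicate with no local background. In the deposited lists, fold enrichment is a ratio at each summit, the −log10 p and q values are those of MACS2, and the authors' score is the −log10 q value scaled to a whole number. The smallest −log10 p and the shortest peaks do not match the p limit and extension length stated in the methods, so the calling settings of these lists, and with them how far weak and short peaks are included, are uncertain. Running peak numbers are skipped in places, and the peaks that bear them were not analysed here. Sites in repeated sequence are underrepresented.

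Gene starts came from GENCODE M21 and sequence from the GRCm38 reference. A pair in which a gene already belonged to a closer pair was dropped (11 pairs). Shared regions are replicate 1 peaks trimmed to replicate 2 peaks (at least 1 bp) and merged where they touch. A promoter's fold enrichment is the highest of its shared regions. The summit behind it can lie outside the window, and both summits lay inside at 905 of the 943 pairs. The search for pairs and shared regions, in Python 3.11.15 with pandas 2.3.3 and pysam 0.24.0, was tested on simulated data and found 1025 of 1025 planted pairs. With 1 group of 2 samples no test was run: promoters are not replicates. The pairs named were the 10 highest, 5 longest and 5 lowest, the highest and lowest of each gene list, the textbook and heart pairs, and some of the pairs without a peak. Some of these pairs are not reported here. Members and lists were chosen with earlier results of these data known.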

Additional observations from a re-analysis of the deposited data

How the results depend on the processing

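The 5 results were pairs with a shared region, pairs with both starts in it, and the differences from single-gene promoters in share, fold enrichment and length. Each was recomputed under the alternatives that apply to it, which were fewer for the counts of pairs than for the differences. None of the differences reversed, and a count cannot reverse. The comparisons by motif, distance, CpG class and gene list were not recomputed this way, except for shares without promoters at skipped peak numbers. At a CpG ratio of 0.8 or more, where the shares were 96.4% in both classes, they became 100% and 99.0% without promoters at skipped peak numbers. The count of 943 pairs with a shared region and of 909 with both starts in 1 region fell to 404 and 392 where starts were limited to basic transcripts of support level 1, by construction since 423 pairs were left, and lay between 885 and 946 and between 868 and 917 under the others. Leaving out a replicate gave 944 and 944 pairs, 912 to 917 with both starts, a difference from single-gene promoters of 34.1 to 34.2 percentage points (35.3 as reported), a ratio of median fold enrichment of 1.37 to 1.37 (1.35), and a difference of median length of 259 to 328.5 bp (270).

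The difference in percentage points and the ratio of fold enrichment were 35.7 and 1.34 at p of at most 1e-05, 38.2 and 1.28 at q of at most 1e-10, 35.1 and 1.33 with reciprocal overlap of 50%, 38.5 and 1.31 with both summits inside, 36.4 and 1.33 with flanks of 250 bp, 34.0 and 1.37 with flanks of 1 kb, 38.5 and 1.39 against promoters with no other start within 5 kb, 26.3 and 1.33 with support level 1, 30.4 and 1.36 without receptor, keratin, histone and zinc finger families, and, in an alternative chosen after seeing the data, 35.5 and 1.34 without promoters at skipped peak numbers, where 940 of 963 pairs had a shared region and 906 both starts in it. The difference alone moved to 35.1 with each gene by its own start, 35.2 with single-gene windows lengthened upstream and 35.6 with starts at most 500 bp apart. The length difference moved to 219.5 bp at q of at most 1e-10. The cause of these shifts was not tested. Read totals were not given, so fold enrichment has no interval. No paired analysis was possible because both samples belong to 1 group.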

Other observations

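On the X chromosome, which lies outside the autosomal set, 24 head-to-head pairs met the same rule on distance. A shared region was present at 20 of them (83.3%), over both starts in 18, with a median length of 1675 bp and median fold enrichments of 28.0 in replicate 1 and 29.8 in replicate 2. Mospd2/Fancb, with a Fanconi anaemia gene, was the highest at 46.4 and 46.5, followed by Mtcp1/Brcc3 at 45.9 and 43.2. Ribc1/Smc1a, with the cohesin subunit of mitosis, stood at 31.2 and 31.2, whereas its autosomal counterpart Smc1b/Ribc2, with the meiotic subunit, had a peak of 3.80 in replicate 1 only. No peak number was skipped at the X-linked pairs, and those without a peak were Asb12/Pfn5, Gm4779/8030474K03Rik, Gm9112/Dmrtc1b and Dmrtc1a/1700011M02Rik. These pairs were named after their values were seen.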
